A study of Mus musculus with 12 samples.

Results

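The data described here are the 6 RNA sequencing libraries made from wild type (WT) mouse calvariae, the flat bones of the skull roof, out of 12 libraries in the series. They form the comparison of 3 libraries from WT embryos whose dams received MS-275 with 3 libraries from WT embryos whose dams received vehicle. They were chosen by genotype and treatment label, and all 39179 Ensembl gene entries of each count file were kept. The other 6 libraries, 3 per treatment, are from embryos heterozygous for Runx2 (Runx2+/-), whose deleted part of the gene the labels do not state. All embryos were C57BL/6 at embryonic day 17.5, from matings of WT with Runx2+/- mice at 8 weeks of age. Treated dams had 2 intraperitoneal injections of MS-275 at 10 mg/kg, on days 14.5 and 16.5 post coitum. What the vehicle contained is not stated in the labels. Nor is it stated whether replicates were separate embryos, pools or litters, so the p-values measure only the spread among these samples. Runx2 itself, the gene deleted in the other genotype, was at 45.5, 42.4 and 46.1 CPM (counts scaled to a common library total, with the totals adjusted by TMM, the trimmed mean of M values) in WT vehicle replicates 1, 2 and 3. Values below are always given in that order of replicates.

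MS-275 (entinostat) inhibits class I histone deacetylases, the enzymes that remove acetyl groups from histone tails and other proteins. The skull vault forms by intramembranous ossification, in which mesenchymal cells become osteoblasts directly, under Runx2 and then Sp7. Osteoblasts deposit collagen and noncollagenous matrix and mineralize it, some become osteocytes, and osteoclasts of the myeloid lineage resorb bone. A calvaria taken with its surroundings can also carry skin, muscle, nerve and eye tissue. In bulk RNA, fewer cells of a type and less RNA per cell cannot be told apart.

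The libraries differed in ways that stand beside every result. The vehicle libraries held 13307456 to 19044500 counts in genes, and those from MS-275 held 16780972 to 19399760. Of the uniquely aligned reads, 10.5% to 15.2% fell in no gene in vehicle, against 5.21% to 6.28% in MS-275. Mitochondrially encoded genes took 4.36% to 4.73% of gene counts in vehicle and 12.7% to 23.0% in MS-275. Vehicle replicate 3 stood apart: on the first principal component of the 6 libraries, with 75.3% of the variance, replicates 1 and 2 lay at -131.1 and -135.3, replicate 3 at -20.2, and the MS-275 libraries at 81.5 to 119.6. Vehicle replicates 1 and 2 were rich in lens and neuron transcripts and replicate 3 was not. Results that rest on that library are therefore given with and without it. Xist, the transcript of the inactive X chromosome, had 46102, 34 and 47 counts in the vehicle libraries and 36, 19585 and 29617 in MS-275, so both groups hold libraries of either kind.

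Of 17967 genes with enough counts to test, 1738 were called higher in MS-275 (9.67%) and 1676 lower (9.33%) at an adjusted p under 0.05 (edgeR quasi-likelihood F test on all 12 libraries, Benjamini-Hochberg). Among the called genes, 1386 of the higher and 1418 of the lower differed by at least 2-fold, and 66 and 623 by at least 8-fold. The large differences were thus mostly decreases. In every gene called higher and in 1652 of the 1676 called lower, the 3 libraries of each group did not overlap, which held for 27.3% (higher) and 27.5% (lower) of all genes tested. The median log2 fold change over all genes tested was -0.13. It was -0.95 when libraries were scaled by their total counts alone, where 526 genes were called higher and 7009 lower, so the sign of a small increase depends on the scaling.

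These calls sit at the edge of the threshold. The adjusted p of the called genes lay between 0.0434 and 0.05, while 8512 genes had an unadjusted p under 0.05. Leaving out any of vehicle replicates 1 and 2 or MS-275 replicates 1, 2 and 3 left no gene past the threshold (smallest adjusted p 0.052 to 0.132), and without vehicle replicate 3 there were 2539 higher and 3062 lower. All 1738 and all 1676 kept their sign in each of these 6 fits, and at least 1737 and 1672 of them kept an unadjusted p under 0.05. These genes were called from the same libraries, and in nearly all of them the groups do not overlap. Their kept sign was thus largely fixed in advance and is no separate support. With the 6 WT libraries alone 3448 genes were called higher and 3861 lower. Leaving out a library of the other genotype, Runx2+/- MS-275 replicate 3, gave 4040 higher (22.2%) and 4440 lower (24.4%) of the genes tested there, against 13.9% and 16.7% without vehicle replicate 3. Counts of many gene lists move too. Some list counts above 0 change by over 1.5 times without vehicle replicate 3 or without Runx2+/- MS-275 replicate 3. Both counts then follow in brackets, in that order. Without brackets, a count of 0 or a direction not given can still be above 0 in those fits. Each list count is to be read beside the shares of all genes tested that were called in the same fit. In the fit on 12 libraries these were 9.67% higher and 9.33% lower. By library size alone, no gene was called higher in the lists of osteoblast factors, macrophage genes, the citric acid cycle, fatty acid oxidation, histones and p53 targets. The same held for the FGF, class I deacetylase, retinoic acid, retina, lipid barrier and hair follicle lists. The words rose and fell are used below for genes called in the fit on 12 libraries.

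**Figure D1:**
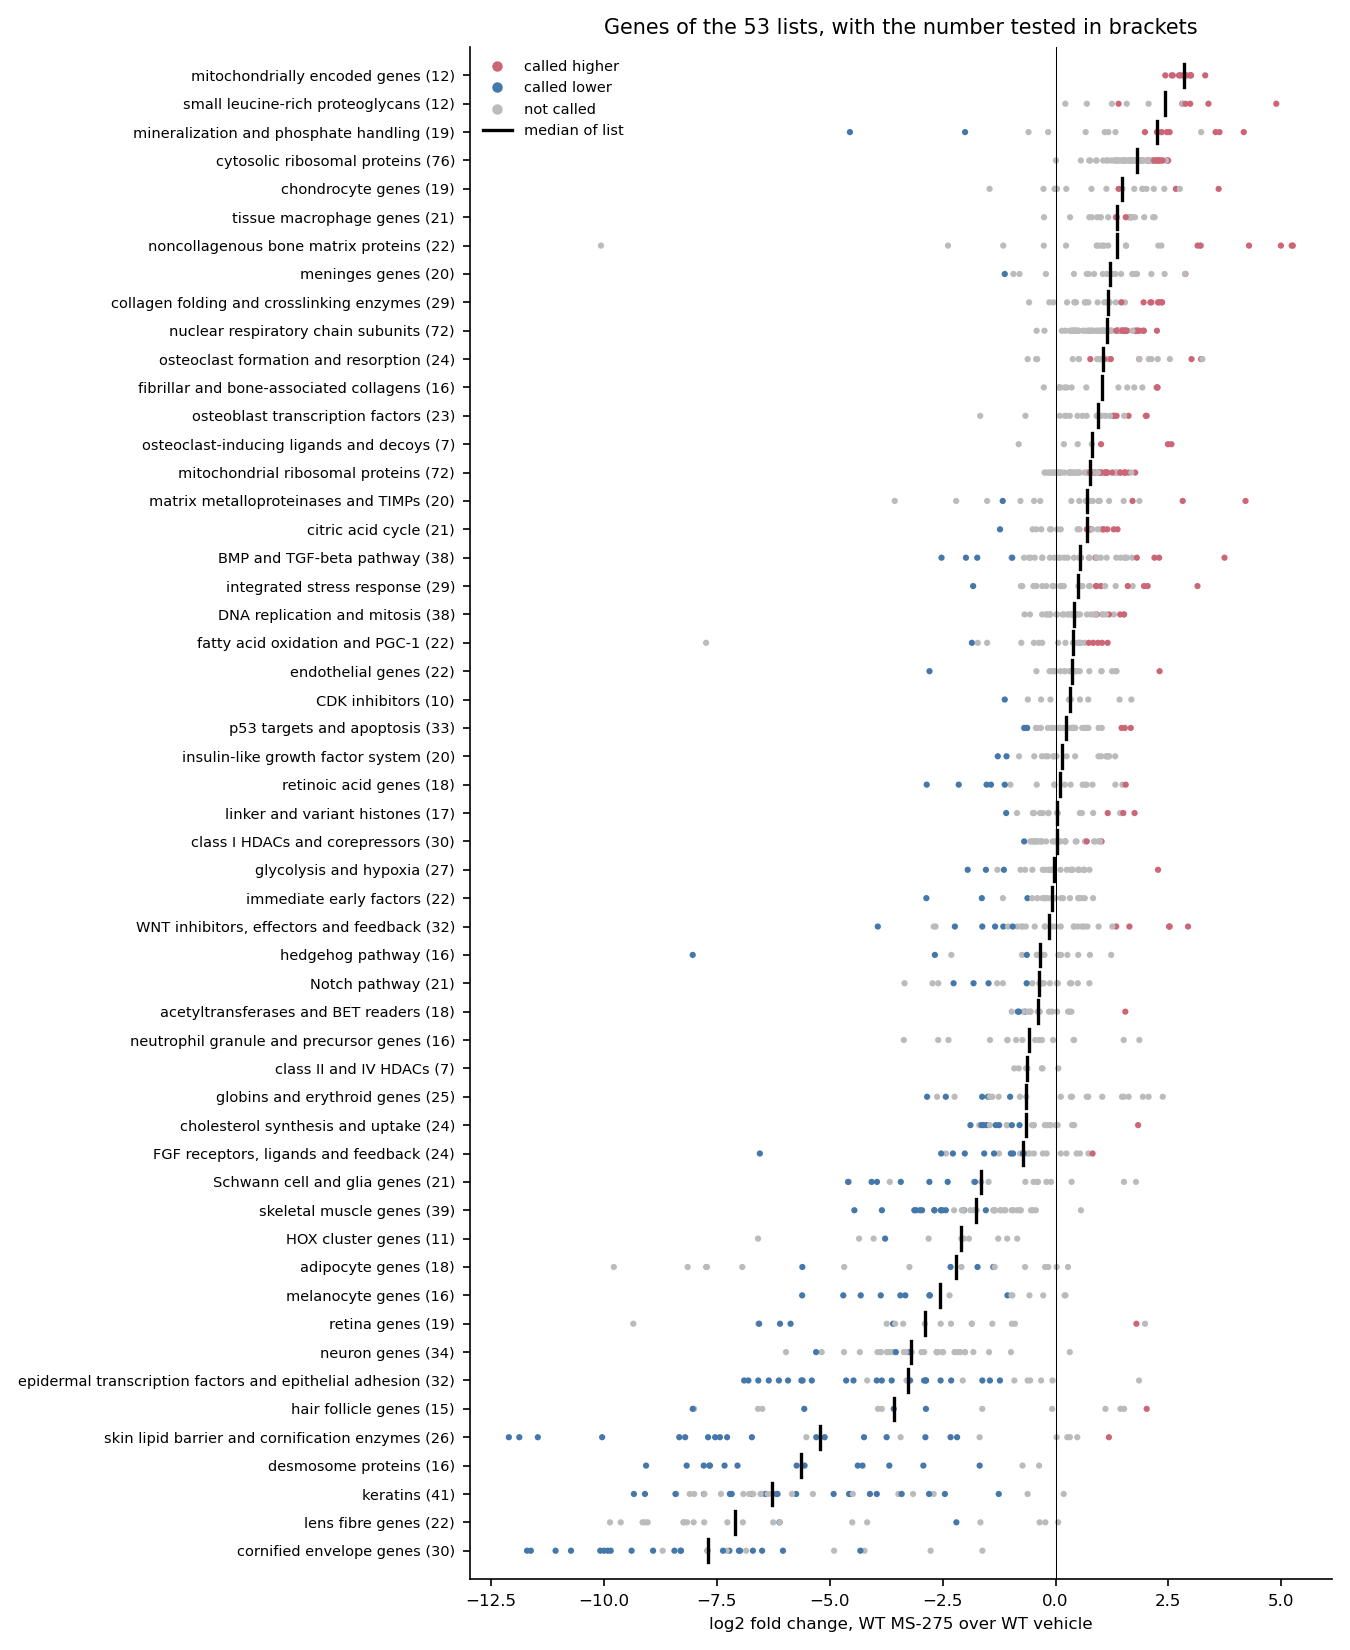
Each point is a tested gene of 1 of 53 gene lists, placed by its log2 fold change in WT MS-275 over WT vehicle, and coloured where it was called. Black bars are list medians, which run from 2.84 for mitochondrially encoded genes to -7.70 for cornified envelope genes.

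Noncollagenous proteins of bone matrix held the 3 largest increases among called genes with at least 20 CPM in the higher group. Of 22 tested, 6 (7 and 16) rose and 0 fell, with a median log2 fold change of 1.36. Bglap (osteocalcin, the vitamin K dependent protein of mature osteoblasts; chr3:88383501-88384464 on GRCm38) was at 4.03, 3.11 and 6.28 CPM in vehicle and 147, 178 and 188 CPM in MS-275, a log2 fold change of 5.25 ± 1.17 (SE). Spp1 (osteopontin, an acidic mineral-binding protein; chr5:104435118-104441050) was at 322, 279 and 716 CPM against 8799, 14808 and 18153 CPM, 4.99 ± 1.32 on the log2 scale. Ibsp (bone sialoprotein; chr5:104299171-104311469) was at 794, 453 and 976 CPM against 11018, 15365 and 16858 CPM, 4.28 ± 1.11. In all 3 genes the lowest MS-275 library was more than 10 times the highest vehicle library. Bglap2, a near-identical copy of Bglap whose reads the counting could split, gave 5.23. The inhibitor of calcification Mgp was at 47.5, 45.0 and 103 CPM against 518, 506 and 770.5 CPM, and Cthrc1, a secreted protein with a collagen-like repeat, at 60.4, 51.4 and 135 CPM against 575, 704 and 899 CPM. In both, as in Bglap and Spp1, vehicle replicate 3 was the highest vehicle library but stayed far below MS-275. Sparc (osteonectin, a collagen-binding glycoprotein) was not called, at 1888, 1459 and 3982 CPM against 13174, 13689 and 8619 CPM. Against vehicle replicate 3 alone the list's median was 1.29.

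Bglap and Spp1 are shown by the 250 bases before their transcription starts, because both hold the letters TGTGGT, which RUNX factors are known to bind, on the reverse strand (written ACCACA; in capitals, with the TATA box of Bglap). The sequences are from RefSeq on GRCm38.p6, at chr3:88384467-88384716 on the minus strand and, for the more upstream of the 2 Spp1 starts in the table, chr5:104434861-104435110 on the plus strand.
Bglap: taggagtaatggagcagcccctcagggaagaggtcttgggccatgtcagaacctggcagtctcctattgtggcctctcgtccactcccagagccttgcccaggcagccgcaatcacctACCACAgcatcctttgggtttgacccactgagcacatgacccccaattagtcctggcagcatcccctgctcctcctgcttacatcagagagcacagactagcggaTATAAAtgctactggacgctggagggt
Spp1: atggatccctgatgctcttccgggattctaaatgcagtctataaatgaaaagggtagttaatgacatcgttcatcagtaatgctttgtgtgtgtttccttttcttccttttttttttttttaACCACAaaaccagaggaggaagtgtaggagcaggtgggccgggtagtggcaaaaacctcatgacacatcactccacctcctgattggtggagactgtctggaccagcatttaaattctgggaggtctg
The match begins at base -132 in Bglap and -128 in Spp1, counted from the start. In windows from 250 bases before to 50 after a start, TGTGGT was found on either strand in 16.8% of 32851 promoters and in 2145 of the 16523 promoters of genes tested. Over the bone matrix, mineralization and osteoblast factor lists, 42 of 62 tested genes had a promoter in the table, and 12 of their 56 promoters held the letters (21.4%). A match is a run of letters, and no binding was measured here.

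**Figure D2:**
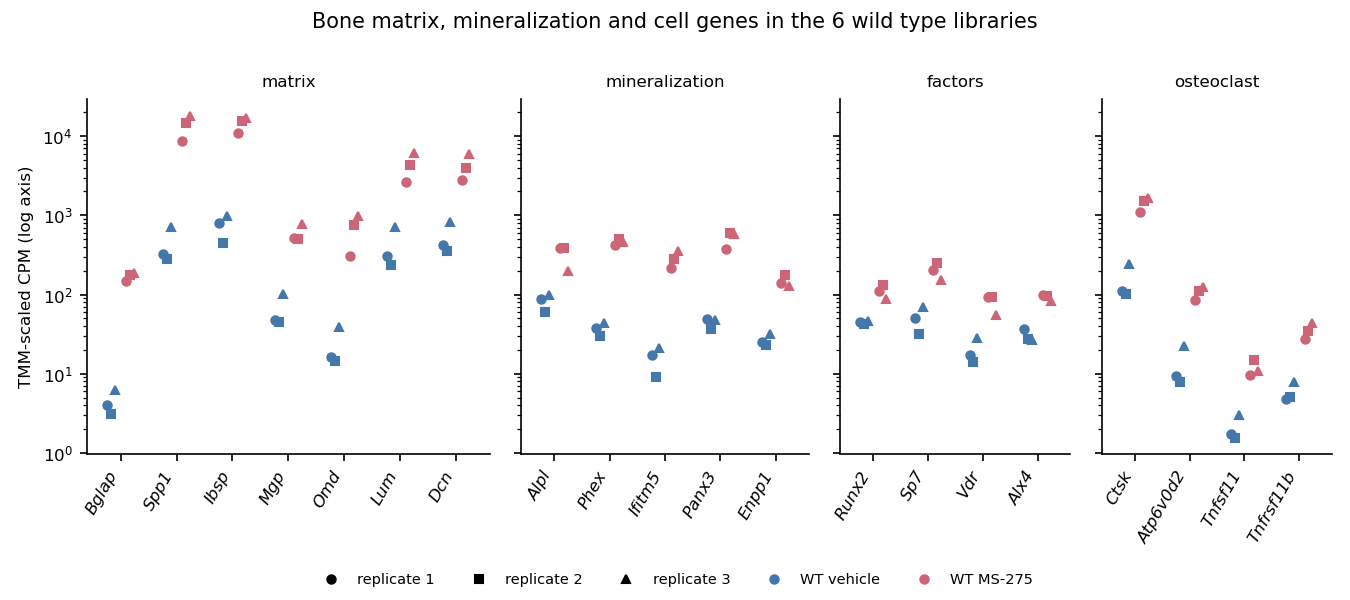
Each point is 1 library, on a log axis of TMM-scaled CPM, for genes of bone matrix, mineralization, osteoblast factors and osteoclasts. In each gene drawn the 3 MS-275 libraries lie above the 3 vehicle libraries, and vehicle replicate 3 (triangle) is often the highest of the vehicle libraries.

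Small leucine-rich proteoglycans, which bind collagen and space its fibrils, had the highest median of the bone lists, 2.43, and 6 (7 and 10) of 12 rose. Omd (osteomodulin; chr13:49582462-49592822), which is found in mineralized tissue, was at 16.2, 14.6 and 38.6 CPM in vehicle and 309, 753 and 992 CPM in MS-275 (4.89 ± 1.11). Lum (lumican), a keratan sulfate carrier, was at 305, 239 and 718 CPM against 2655, 4349 and 6175 CPM, and Dcn (decorin), which also binds TGF-beta, at 427, 356 and 818 CPM against 2788, 3909 and 5934 CPM. Aspn (asporin) and Ogn (osteoglycin), neighbours of Omd in 1 gene cluster, had log2 fold changes of 2.81 ± 0.76 and 2.88 ± 0.79. In each of Omd, Lum, Dcn, Aspn and Ogn, MS-275 replicate 3 was the highest library. Chad (chondroadherin), a cartilage member, was low throughout, at 3.35, 4.32 and 5.98 CPM against 16.5, 10.7 and 8.71 CPM. Biglycan (Bgn), a close relative of decorin, was not called, at 1.57.

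Of 16 collagens, 2 (2 and 8) rose and none fell, with a median of 1.04, while 9.67% of all genes tested rose. With the 6 WT libraries 8 collagens were called higher, and 7 by DESeq2, where 20.9% and 18.5% of all genes tested were called higher. Col5a2, a minor chain of type I fibrils, was at 838, 716 and 933 CPM in vehicle and 3818, 4398 and 3644 CPM in MS-275, and Col24a1, a fibrillar collagen of ossifying bone, at 57.2, 48.8 and 47.3 CPM against 225, 274.8 and 229 CPM. The main chain of bone, Col1a1, was not called: its MS-275 libraries were at 25008, 18778 and 8467 CPM, against 6181, 4824 and 6385 CPM in vehicle, and replicate 3 lay closest to vehicle.

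Of the enzymes that modify, fold and crosslink collagen, 8 (10 and 19) of 29 rose and 0 fell, with a median of 1.15. P4ha1 and P4ha2, catalytic subunits of prolyl 4-hydroxylase, were at 97.5, 79.1 and 144 and 48.9, 37.0 and 67.0 CPM in vehicle, against 544, 554 and 448 and 208, 215 and 167 CPM in MS-275. Serpinh1 (HSP47, the collagen chaperone) had a log2 fold change of 2.10 ± 0.66, Ppib (cyclophilin B) 2.29 ± 0.58 and Fkbp14, another prolyl isomerase, 2.36 ± 0.66. Plod2, which hydroxylates telopeptide lysine, Pcolce, which speeds removal of the C-propeptide, and Loxl4, a lysyl oxidase, were at 1.46, 2.12 and 2.35. Fkbp10, which acts with Plod2, was not called at 1.14.

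Mineralization and phosphate genes had a median of 2.24, with 9 (8 and 15) of 19 higher and 2 lower. Phex, the membrane peptidase of osteoblasts and osteocytes whose loss causes phosphate wasting, was at 37.7, 30.3 and 44.2 CPM in vehicle and 425, 500.0 and 463 CPM in MS-275 (3.63 ± 0.89). Ifitm5, a small membrane protein of osteoblasts, was at 17.03, 9.00 and 21.1 CPM against 216, 280.2 and 351 CPM (4.17 ± 1.02). Panx3, a channel of osteoblasts and chondrocytes, was at 49.5, 36.4 and 48.1 CPM against 377, 596 and 588 CPM (3.54 ± 0.82). None of these 3 genes overlaps between groups, and vehicle replicate 3 was close to replicate 1 in Phex and Panx3. Alpl, the alkaline phosphatase that frees phosphate, was at 87.2, 60.03 and 97.8 CPM against 382, 387 and 196 CPM, and Enpp1, which makes the inhibitor pyrophosphate, at 25.05, 23.2 and 31.7 CPM against 138, 176 and 128 CPM. Genes on both sides of that balance thus rose. Tmem119, an osteoblast membrane protein, Slc13a5, a citrate transporter, and Kcnk1, a potassium channel, had log2 fold changes of 2.26, 2.24 and 2.35. Sost (sclerostin, the osteocyte WNT inhibitor) was low but higher in MS-275, at 2.27, 3.11 and 1.53 CPM against 18.4, 10.5 and 11.0 CPM. Slc34a2, a phosphate carrier of epithelia, fell from 7.26, 1.90 and 3.16 CPM to 0.391, 0.0819 and 0 CPM. Car12, a carbonic anhydrase of epithelia, was at 27.6, 20.01 and 25.9 CPM against 9.31, 3.52 and 5.43 CPM. The osteocyte genes Dmp1 and Mepe were not called, at 2.34 and 3.22.

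Among 23 transcription factors of the osteoblast lineage, 6 (8 and 11) rose and 0 fell, with a median of 0.94. By library size alone 0 were called higher and the median was 0.14. Runx2 (chr17:44495987-44814797) was at 45.5, 42.4 and 46.1 CPM in vehicle and 111, 131 and 88.2 CPM in MS-275 (1.30 ± 0.36). Sp7 (osterix), which acts after Runx2, was at 50.6, 31.6 and 70.3 CPM against 202, 252 and 154 CPM (2.00 ± 0.57), and Vdr, the vitamin D receptor, at 17.1, 14.2 and 28.4 CPM against 93.3, 92.9 and 55.6 CPM (2.02 ± 0.63). The 6 libraries separate by group in all 3 genes, with MS-275 replicate 3 the lowest treated library. Alx4, Msx1 and Dlx6, homeobox factors of skull patterning, were at 1.62, 1.35 and 1.29. Twist2, a basic helix-loop-helix factor of dermis and mesenchyme, was not called at -1.67, and its vehicle libraries ranged widely, at 11.3, 6.00 and 36.9 CPM.

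Genes of osteoclasts were higher in part: 6 (8 and 15) of 24 rose, none fell, and the median was 1.06. Ctsk (cathepsin K, the collagenase of the resorption pit) was at 112, 101 and 244 CPM in vehicle and 1095, 1512 and 1650.3 CPM in MS-275 (3.22 ± 0.88). Atp6v0d2, a proton pump subunit needed for fusion, was at 9.37, 7.96 and 22.2 CPM against 85.0, 111 and 123 CPM, and Calcr, the calcitonin receptor, at 2.31, 2.59 and 1.63 CPM against 8.33, 7.04 and 8.28 CPM. Tcirg1, another pump subunit, and Snx10, a sorting nexin, were at 1.08 and 1.22. Acp5, the tartrate-resistant acid phosphatase, was not called at 2.53 ± 0.87, though its groups do not overlap. Both the ligand and the decoy of the osteoclast pathway rose: Tnfsf11 (RANKL) was at 1.71, 1.56 and 3.02 CPM against 9.70, 14.8 and 10.9 CPM, and Tnfrsf11b (osteoprotegerin) at 4.79, 5.13 and 7.86 CPM against 27.5, 34.1 and 43.7 CPM. Sema3a, a semaphorin of osteoblasts, was at 1.01 and the growth factor gene Csf1, not called, at 0.80. Macrophage genes, which share the lineage, had a summed level of 406, 366 and 1012 CPM in vehicle and 1699, 1780.4 and 1679 CPM in MS-275, and 3 (14 and 17) of 21 rose, or 0 by library size alone. Cd68 and Ptprc were among them at 1.55 and 1.35, and Adgre1 was not called at 1.96. The part of macrophage RNA in the osteoclast values was not tested.

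Matrix proteinases and their inhibitors gave 3 (4 and 8) higher and 1 (2 and 3) lower of 20, with a median of 0.71 that was -0.08 by library size alone. Timp1, a secreted proteinase inhibitor, was at 13.1, 7.55 and 22.9 CPM in vehicle and 211, 258 and 335 CPM in MS-275 (4.20 ± 1.04). Mmp13, a collagenase of bone, was at 61.4, 57.1 and 119 CPM against 349.8, 745 and 577 CPM, Mmp16 rose by 1.70 on the log2 scale, and Mmp15, a membrane proteinase, was at -1.17. Cartilage genes rose in 3 (2 and 11) of 19 cases, with a median of 1.48: Hapln1, a link protein of the proteoglycan aggregate, was at 33.2, 37.8 and 48.6 CPM against 232, 261 and 265 CPM, and Snorc, a chondrocyte proteoglycan, at 0.917, 1.15 and 1.38 CPM against 14.5, 11.1 and 16.7 CPM. Sox9, the main chondrocyte factor, was not called at -0.27 ± 0.32, and its groups overlap.

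The FGF, hedgehog and Notch lists had more genes called lower than higher, as did the WNT, retinoic acid and insulin-like growth factor lists described below. Of 24 FGF receptors, ligands and feedback genes, 10 fell and 1 (1 and 2) rose, and the median was -0.71. Among the ETS factors and feedback inhibitors that FGF signalling induces, Etv4 was at 9.09, 9.80 and 10.1 CPM in vehicle and 2.60, 1.72 and 1.64 CPM in MS-275, Spry2 at 17.5, 17.2 and 28.2 CPM against 9.44, 5.89 and 5.69 CPM, and Spry1 at 22.1, 21.2 and 37.2 CPM against 13.5, 10.2 and 7.68 CPM. The MS-275 libraries lay below all vehicle libraries in each, and vehicle replicate 3 was the highest for both Sprouty genes. Spry4, Il17rd, Spred2 and Etv5, also of the feedback set, were at -0.99, -0.94, -0.71 and -0.72, and no DUSP phosphatase of the list was called. Fgf10, a ligand of mesenchyme, and Fgfr4 were at -2.01 and -2.53. Fgfr3 alone rose, from 41.5, 38.2 and 35.6 CPM to 72.5, 70.8 and 60.3 CPM (0.82 ± 0.20). By library size alone 0 genes of the FGF list were called higher.

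In the hedgehog pathway 3 of 16 fell and none rose, with a median of -0.33. Shh, the ligand, had no count in any MS-275 library and 2.23, 2.19 and 1.09 CPM in vehicle, a level at least 7.88-fold lower by a floor of 3 counts per library. Ptch1, a receptor and target, was at 42.6, 37.6 and 43.1 CPM against 28.7, 28.6 and 22.0 CPM. Ihh, the ligand of developing bone, was not called and lay the other way, at 1.04, 0.750 and 1.88 CPM against 3.45, 3.11 and 2.07 CPM. Notch genes fell in 4 (5 and 8) of 21 cases, none rose, and the median was -0.36. Notch1, a receptor, was at 56.6, 62.2 and 59.4 CPM against 29.4, 19.5 and 14.8 CPM, the ligands Jag2 and Dll1 had log2 fold changes of -2.26 ± 0.61 and -1.81 ± 0.55, and Nrarp, a feedback target, -0.64 ± 0.15. Shh, Jag2 and Notch1 are also transcribed in skin epithelium, and keratins summed to 4332, 1879.5 and 3201 CPM in vehicle and 65.6, 45.9 and 45.9 CPM in MS-275. The part of epidermal RNA in these decreases was not tested.

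The WNT list split, with 5 (4 and 9) of 32 higher, 6 lower and a median of -0.15 that was 0.08 without vehicle replicate 3. The genes called higher were the secreted inhibitors Wif1, Dkk1, Dkk2 and Sost, and Ctnnb1, while no gene of the secreted Frizzled-related family was called. Wif1 was at 48.2, 38.0 and 48.2 CPM in vehicle and 329, 408 and 289 CPM in MS-275 (2.93 ± 0.66), Dkk1 at 10.0, 8.02 and 13.1 CPM against 59.8, 69.9 and 48.2 CPM, and Dkk2 at 36.8, 31.3 and 62.8 CPM against 119, 153 and 134 CPM. These inhibitors and Sost separate by group without overlap. Of the 6 genes called lower, Axin2, a target and feedback inhibitor, was at 21.9, 23.2 and 34.1 CPM against 13.4, 8.60 and 13.5 CPM, Lef1 at 12.7, 9.98 and 23.3 CPM against 4.75, 4.91 and 5.26 CPM, and Rnf43, which clears Frizzled receptors, at 9.05, 6.57 and 14.2 CPM against 2.54, 1.56 and 2.24 CPM. Another such ligase, Znrf3, and Lgr5, an R-spondin receptor, were at -0.95 and -1.34, and Dkkl1, a secreted Dickkopf-like protein, at -3.93. Ctnnb1 (beta-catenin, the effector) rose, from 776, 729 and 781 CPM to 1704, 2088 and 2002 CPM.

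BMP and TGF-beta genes also went both ways, with 6 (8 and 14) of 38 higher, 4 lower and a median of 0.53, or -0.28 by library size alone. Bambi, a decoy receptor, was at 20.2, 16.5 and 29.2 CPM in vehicle and 210.3, 273 and 398 CPM in MS-275 (3.74 ± 0.81). Bmp3, an antagonistic ligand, Chrdl1, a binding protein, and Smad9, a signal transducer, were at 2.19, 2.29 and 1.80. The receptors Bmpr1b and Acvr2b fell, at -1.98 ± 0.31 and -1.73 ± 0.49. Id4 was at 30.7, 29.4 and 8.36 CPM against 4.10, 2.70 and 5.09 CPM, where vehicle replicate 3 lay near MS-275. Retinoic acid genes had 5 lower and 1 (2 and 3) higher of 18, with a median of 0.09 and -0.69 by library size. The degrading enzymes Cyp26a1 and Cyp26b1 were at -2.14 and -1.53, the synthetic dehydrogenase Rdh10 at -1.12 and the binding protein Crabp1 at -1.43. The retinol receptor Stra6 rose, from 10.5, 10.4 and 6.63 CPM to 35.4, 21.4 and 24.0 CPM. In the insulin-like growth factor system 2 (3 and 4) of 20 fell, Pappa and Irs2, at -1.09 and -1.28, and 0 (1 and 5) rose. The share that fell is near the 9.33% of all genes tested. The median of that list was 0.13 (-0.66 by library size).

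**Figure D3:**
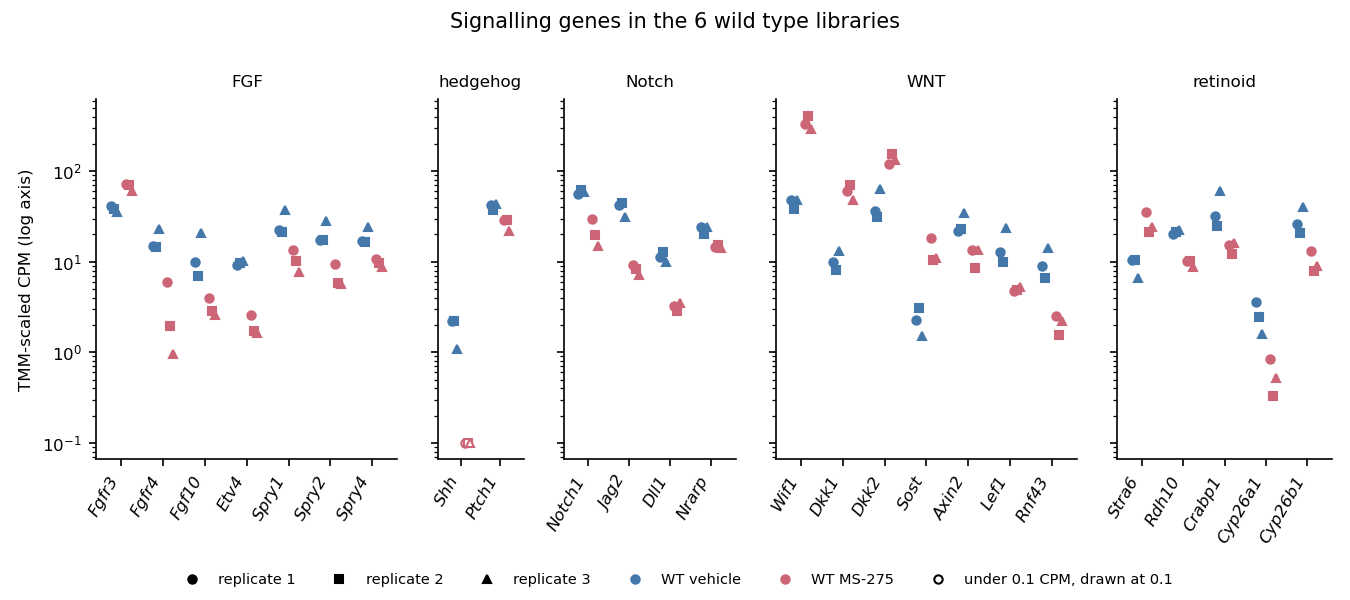
Each point is 1 library, on a log axis of TMM-scaled CPM, for genes of 5 signalling pathways; open points had under 0.1 CPM and are drawn at 0.1. Etv4 and the Sprouty genes, Jag2 and Notch1 are lower in MS-275, while Wif1, Dkk1, Dkk2, Sost and Stra6 are higher.

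The next lists hold the drug's direct targets and their partners. Of 30 class I deacetylase and corepressor genes, 2 (2 and 8) rose and 1 (1 and 3) fell, with a median of 0.03 (-0.79 by library size). Hdac2, a main target, was at 210.2, 213 and 166 CPM in vehicle and 232, 302 and 390.3 CPM in MS-275 and was not called. Mbd2, a methyl-CpG reader, and Rcor1, a corepressor, were at 1.02 and -0.69. Of 7 class II and IV deacetylases tested, 0 (0 and 4) fell and none rose, and their median was -0.62. Among acetyltransferases and readers of acetylated lysine, 3 (7 and 9) of 18 fell and 1 (1 and 2) rose. The bromodomain reader Brd3 was at 117, 118 and 109 CPM in vehicle, against 74.7, 62.5 and 55.6 CPM in MS-275. Kat6b, an acetyltransferase, was at -0.81. Hat1, which acetylates newly made histones, was at 38.7, 31.3 and 41.7 CPM against 72.1, 106 and 148 CPM. Histone genes gave 3 (4 and 5) higher and 1 (1 and 3) lower of 17: Hist1h1c, a linker histone, rose by 1.75 ± 0.47 and Hist1h2bc by 1.50 ± 0.40 on the log2 scale, and H1fx was at -1.09 ± 0.31. Reads of near-identical histone copies can be split by the counting, so these values are uncertain.

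Stress and growth genes gave mixed counts. In the integrated stress response, which slows translation when amino acids or folding fail, 7 (10 and 13) of 29 rose and 1 (2 and 4) fell, with a median of 0.51 (-0.32 by library size). Nupr1, a small stress-induced chromatin protein, was at 20.8, 15.6 and 28.3 CPM in vehicle and 139, 183 and 249 CPM in MS-275 (3.14 ± 0.67). Asns (asparagine synthetase) was at 30.3, 34.2 and 29.1 CPM against 85.1, 126 and 174 CPM, Mthfd2, of mitochondrial folate metabolism, at 16.9, 12.5 and 21.6 CPM against 40.8, 62.0 and 51.6 CPM, and Chac1, which degrades glutathione, at 1.32, 1.38 and 2.27 CPM against 4.23, 7.94 and 7.25 CPM. MS-275 replicate 1 was the lowest treated library in all 4 of these genes. The amino acid exchanger Slc7a5 fell, from 54.7, 56.7 and 69.3 CPM to 19.9, 18.1 and 13.03 CPM (-1.82 ± 0.30), although it belongs to the same response. Its partner chain Slc3a2 was not called at -0.29.

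Nupr1 and Chac1 are shown by the 250 bases before their starts because both hold TTGCATCA (in capitals), letters known from response elements bound by ATF4 and CHOP. The RefSeq sequences on GRCm38.p6 lie at chr7:126625471-126625720 on the minus strand and chr2:119350992-119351241 on the plus strand.
Nupr1: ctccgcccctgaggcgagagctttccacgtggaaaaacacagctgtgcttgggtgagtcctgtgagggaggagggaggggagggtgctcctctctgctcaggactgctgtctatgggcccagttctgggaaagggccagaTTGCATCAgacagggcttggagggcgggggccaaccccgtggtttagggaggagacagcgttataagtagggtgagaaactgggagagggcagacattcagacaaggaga
Chac1: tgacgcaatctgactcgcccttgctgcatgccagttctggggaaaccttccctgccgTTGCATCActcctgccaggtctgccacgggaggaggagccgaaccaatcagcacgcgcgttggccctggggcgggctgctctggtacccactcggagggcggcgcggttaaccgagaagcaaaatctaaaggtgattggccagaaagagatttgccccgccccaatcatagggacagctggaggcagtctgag
The letters begin at base -110 in Nupr1 and -193 in Chac1. On either strand they were found in 0.895% of the 32851 promoter windows, 0.611% of those of genes tested, and in 6 of the 30 promoters of the stress list, from 26 of its 29 tested genes. The list holds genes known for such elements, so that share is no separate finding.

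Of genes of DNA replication and mitosis 4 (6 and 16) of 38 were called higher, a share near the 9.67% of all genes tested, and none lower. The count was 1 by library size, and the median was 0.40 (-0.44 by library size). Pcna, the sliding clamp, was at 82.4, 68.9 and 117 CPM in vehicle and 174, 214 and 335 CPM in MS-275, and Hmmr and Kif20a, of the spindle, at 1.52 and 1.18. Among p53 targets and apoptosis genes 3 (5 and 7) rose and 2 (1 and 3) fell of 33. These shares are near or under the 9.67% and 9.33% of all genes tested. The list's median was 0.23, or -0.61 by library size and -0.08 against vehicle replicate 3 alone. Ccng1 was at 79.8, 108 and 142 CPM against 252, 279 and 378 CPM, Fas and Casp8, of the death receptor pathway, at 1.53 and 1.67, and the survival genes Bcl2l1 and Bcl2 at -0.69 and -0.63. Of 10 inhibitors of cyclin-dependent kinases and growth arrest genes, 1 fell, Gadd45a, at -1.12, and 0 (2 and 3) rose. Immediate early factors fell in 3 of 22 cases, Egr3, Ier5 and Nr4a3, at -1.63, -0.62 and -2.86.

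Genes of the respiratory chain rose in both the mitochondrial and the nuclear genome. All 12 mitochondrially encoded genes tested rose, with a median of 2.84. mt-Atp8, a subunit of ATP synthase, was at 227, 215 and 169 CPM in vehicle and 1255, 1624 and 3196 CPM in MS-275 (3.31 ± 0.64), and mt-Co1, of cytochrome oxidase, at 8899, 9540.0 and 9610.1 CPM against 42374, 53103 and 102103 CPM. MS-275 replicate 3 was the highest library in both. Nuclear genes for respiratory chain subunits rose in 22 (42 and 53) of 72 cases, none fell, and the median was 1.14. Ndufa1 and Ndufa6, of complex I, had log2 fold changes of 2.24 ± 0.56 and 1.86 ± 0.45, Uqcrc2, of complex III, 1.55 ± 0.38, and Atp5g2, of ATP synthase, 1.94 ± 0.45. Mitochondrial ribosomal proteins rose in 20 (32 and 39) of 72 cases with a median of 0.77 (-0.06 by library size). Cytosolic ribosomal proteins rose in 17 (69 and 59) of 76 with a median of 1.79, which was 2.50 without vehicle replicate 3. Against vehicle replicate 3 alone it was 0.96. Reads assigned to no gene, which were 10.5% to 15.2% in vehicle and 5.21% to 6.28% in MS-275, moved with these results, and their part was not tested.

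In the citric acid cycle 8 of 21 rose and 1 fell, with a median of 0.69 (-0.14 by library size). Dld, shared by the dehydrogenase complexes, was at 95.4, 138 and 104 CPM in vehicle and 219.9, 286 and 368 CPM in MS-275, and Pdha1, of pyruvate dehydrogenase, at 88.8, 118 and 102 CPM against 195, 226 and 263 CPM. Pyruvate carboxylase, Pcx, fell, from 21.1, 37.5 and 19.1 CPM to 13.5, 8.27 and 11.3 CPM. Fatty acid oxidation gave 5 (3 and 6) higher of 22, among them Hadhb and Etfdh at 1.15 and 1.03, and 1 (2 and 2) lower, the coactivator Ppargc1a (PGC-1 alpha), at 12.3, 18.7 and 4.85 CPM against 3.78, 2.78 and 3.36 CPM. The list's median was 0.40, or -0.42 by library size. Glycolysis and hypoxia genes gave 3 lower and 1 (1 and 5) higher of 27. These shares are near or under the 9.33% lower and 9.67% higher of all genes tested. The glucose carrier Slc2a1 was at 62.9, 60.3 and 58.4 CPM against 27.3, 19.7 and 15.3 CPM, and Hk2, a hexokinase, and Aldoc, an aldolase of brain, at -1.14 and -1.94.

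Cholesterol genes fell in 8 of 24 cases and rose in 1, with a median of -0.66. Srebf2, the factor that drives the pathway, was at 119, 134 and 86.3 CPM in vehicle and 43.5, 31.8 and 33.5 CPM in MS-275 (-1.64 ± 0.37). Sqle, squalene epoxidase, was at 90.4, 92.2 and 52.2 CPM against 30.0, 32.3 and 31.6 CPM. Neither gene overlaps between groups, though in Sqle vehicle replicate 3 lies below the other vehicle libraries. Dhcr7, Tm7sf2, Mvd and Mvk were at -1.25, -1.59, -0.97 and -0.80, and Ebp, a sterol isomerase, rose by 1.83 on the log2 scale. Against vehicle replicate 3 alone the list's median was -0.33.

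Transcripts of skin were lower in MS-275. Keratins fell in 21 (21 and 32) of 41 cases, desmosome proteins in 14 of 16, cornified envelope genes in 22 of 30, lipid barrier enzymes in 18 of 26 and epidermal factors and adhesion genes in 23 of 32. Lipid barrier enzymes had 1 member higher and the other 4 lists none. Krt5, of basal keratinocytes (chr15:101707070-101712898), was at 362, 218 and 436 CPM in vehicle and 0.521, 2.21 and 0.259 CPM in MS-275. Krt1, of the suprabasal layers, was at 1613, 415 and 804 CPM against 1.89, 1.31 and 1.98 CPM, and Hrnr (hornerin), of the granular layer, at 964, 165 and 672 CPM against 0.521, 0.737 and 0.604 CPM. Basal and differentiated layers were thus both lower, and vehicle replicate 2 was the lowest vehicle library in each. Dsp (desmoplakin), which anchors keratin at desmosomes, was at 436, 215 and 366 CPM against 2.80, 1.56 and 0.604 CPM, and Pkp1 (plakophilin 1) at 159.8, 78.2 and 139.9 CPM against 0.456, 0.573 and 0.259 CPM. Grhl2, an epidermal transcription factor, Esrp1, an epithelial splicing regulator, and Epcam, an epithelial adhesion protein, had log2 fold changes of -6.12 ± 1.14, -6.89 ± 1.43 and -3.96 ± 0.58. Casp14, a cornification protease, had no count in any MS-275 library and 28.5, 7.55 and 23.4 CPM in vehicle, at least 85.0-fold lower.

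The list medians were -6.28 for keratins, -5.64 for desmosome proteins, -7.70 for the cornified envelope and -5.20 for lipid barrier enzymes. With genes absent from all MS-275 libraries set at the floor of 3 counts, they were -3.96 (11 genes at 0), -5.64, -5.85 (14 genes) and -5.05 (4 genes). The Lce1 genes of the envelope are near-identical copies, so single values are uncertain. Of the lipid enzymes, Elovl4, which makes very long fatty acids, was at 74.7, 42.0 and 42.4 CPM in vehicle and 10.7, 10.8 and 13.6 CPM in MS-275, and the lipoxygenase Aloxe3 at 32.1, 10.0 and 21.7 CPM against 0.651, 0.655 and 0.518 CPM. Without vehicle replicate 3, 21 keratins and 24 envelope genes were called lower, and against replicate 3 alone the medians were -4.78 and -7.43.

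Lor (loricrin) and Ivl (involucrin), 2 envelope proteins, are shown by the 250 bases before their starts because both hold the AP-1 letters TGANTCA and a TATA box, TATAAA (both in capitals). Their RefSeq positions on GRCm38.p6 are chr3:92083143-92083392 and chr3:92573736-92573985, both on the minus strand of the cluster of envelope genes.
Lor: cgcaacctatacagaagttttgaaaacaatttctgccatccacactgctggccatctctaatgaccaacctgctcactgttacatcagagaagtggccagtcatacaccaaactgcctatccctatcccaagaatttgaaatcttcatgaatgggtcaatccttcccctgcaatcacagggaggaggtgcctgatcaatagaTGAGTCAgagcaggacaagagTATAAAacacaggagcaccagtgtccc
Ivl: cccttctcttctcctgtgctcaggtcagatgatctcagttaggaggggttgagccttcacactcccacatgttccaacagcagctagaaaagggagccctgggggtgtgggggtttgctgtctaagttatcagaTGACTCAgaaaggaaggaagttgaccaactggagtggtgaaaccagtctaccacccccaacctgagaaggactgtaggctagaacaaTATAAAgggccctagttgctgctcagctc
The AP-1 letters begin at -48 in Lor and -116 in Ivl, and the TATA letters at -27 and -29. TGANTCA was found on either strand in 7.81% of the 32851 windows, 5.70% of those of genes tested, and in 12 of 79 promoters (15.2%) of the keratin, envelope and lipid barrier lists. Lor was at 137, 35.2 and 128 CPM in vehicle and 1.17, 0.655 and 0.431 CPM in MS-275, and Ivl at 38.8, 6.86 and 31.9 CPM against 0.130, 0 and 0.0863 CPM.

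Markers of other tissues were lower as well, with differences between the vehicle libraries. Muscle genes fell in 14 of 39 cases with a median of -1.76: Myod1, the myogenic factor, was at 7.70, 6.98 and 14.3 CPM in vehicle and 3.26, 1.31 and 0.345 CPM in MS-275, and Ryr1, the calcium release channel, at 115, 156 and 62.7 CPM against 13.8, 4.91 and 4.40 CPM. Summed, the muscle list was at 6239.7, 11477 and 7283 CPM against 5739, 1942 and 1115 CPM, and MS-275 replicate 1 kept the most. Melanocyte genes fell in 9 of 16: Dct was at 25.6, 22.5 and 36.1 CPM against 1.37, 0.164 and 0.0863 CPM, and Pmel at 32.3, 34.7 and 14.3 CPM against 1.24, 1.64 and 1.21 CPM. Both are melanosome genes. Schwann cell and glia genes fell in 7 (11 and 11) of 21 cases and rose in 0 (2 and 2). Erbb3, the neuregulin receptor, was among those that fell, at 55.4, 41.0 and 47.3 CPM against 6.18, 1.96 and 5.18 CPM, as was Mbp, of myelin, at 24.1, 19.9 and 19.9 CPM against 7.81, 4.50 and 6.21 CPM. Adipocyte genes fell in 4 (6 and 14) of 18, and Gpd1 was at 2.95, 141 and 22.2 CPM in vehicle, mostly in replicate 2, against 1.37, 1.06 and 0.949 CPM.

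Lens and neuron markers were high in vehicle replicates 1 and 2 only. Lens genes summed to 1785, 1695 and 96.2 CPM in vehicle and 75.6, 68.6 and 59.9 CPM in MS-275, and the crystallin Cryaa was at 509, 476 and 5.39 CPM against 0.195, 0.982 and 0.604 CPM. Of 22 lens genes 2 (19 and 18) were called lower, a share near the 9.33% of all genes tested. By DESeq2 17 were called lower and by library size alone 20, against 21.7% and 39.0% of all genes tested. The lens median was -7.09, which was -7.67 without vehicle replicate 3 and -0.45 against it alone. Neuron genes summed to 4077, 5107 and 393 CPM against 358, 265 and 968 CPM and fell in 4 (10 and 15) of 34 cases. The share of neuron genes called lower is near the 9.33% of all genes tested, which was 16.7% and 24.4% in the bracketed fits. Their median was -3.20, which turned to 0.55 against replicate 3 alone. Isl1, a factor of motor and sensory neurons, was at 31.7, 24.9 and 7.96 CPM against 0.521, 0.327 and 0.776 CPM with no overlap. Retina genes fell in 4 (7 and 8) of 19, with 1 higher, and their median was -2.89 and -0.10 against replicate 3.

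Erythroid genes fell in 5 of 25 cases and rose in 0 (0 and 5), and their median of -0.65 was 0.04 with the 6 WT libraries alone. Sptb and Ank1 of the membrane skeleton fell, at -2.84 and -2.43. The summed level of the erythroid list, which is mostly globin, was 3929, 3041 and 6522 CPM in vehicle and 5504, 12678 and 28005 CPM in MS-275. The globins are near-identical copies, and their reads could be split. Of 16 neutrophil genes, 0 (2 and 2) fell and 0 (0 and 1) rose. Of 22 endothelial genes, 1 (6 and 5) rose, Emcn, by 2.30 on the log2 scale, and 1 fell, Prox1, of lymphatic vessels, at -2.79. Of 20 meningeal genes, 1 (3 and 10) rose and 1 fell (Ogn and Rdh10, which other lists hold too), under the 9.67% and 9.33% of all genes tested. The median was 1.20, and 16 were at a positive log2 fold change, against 45.4% of all genes tested. The summed level of the meningeal genes was 2705, 2751 and 5393 CPM against 10247, 8322 and 10484 CPM. With the 6 WT libraries 12 were called higher, against 20.9% of all genes tested in that fit. Ptgds, a prostaglandin synthase of the meninges, was at 78.5, 122 and 183 CPM against 1728, 362 and 700.3 CPM and was not called.

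**Figure D4:**
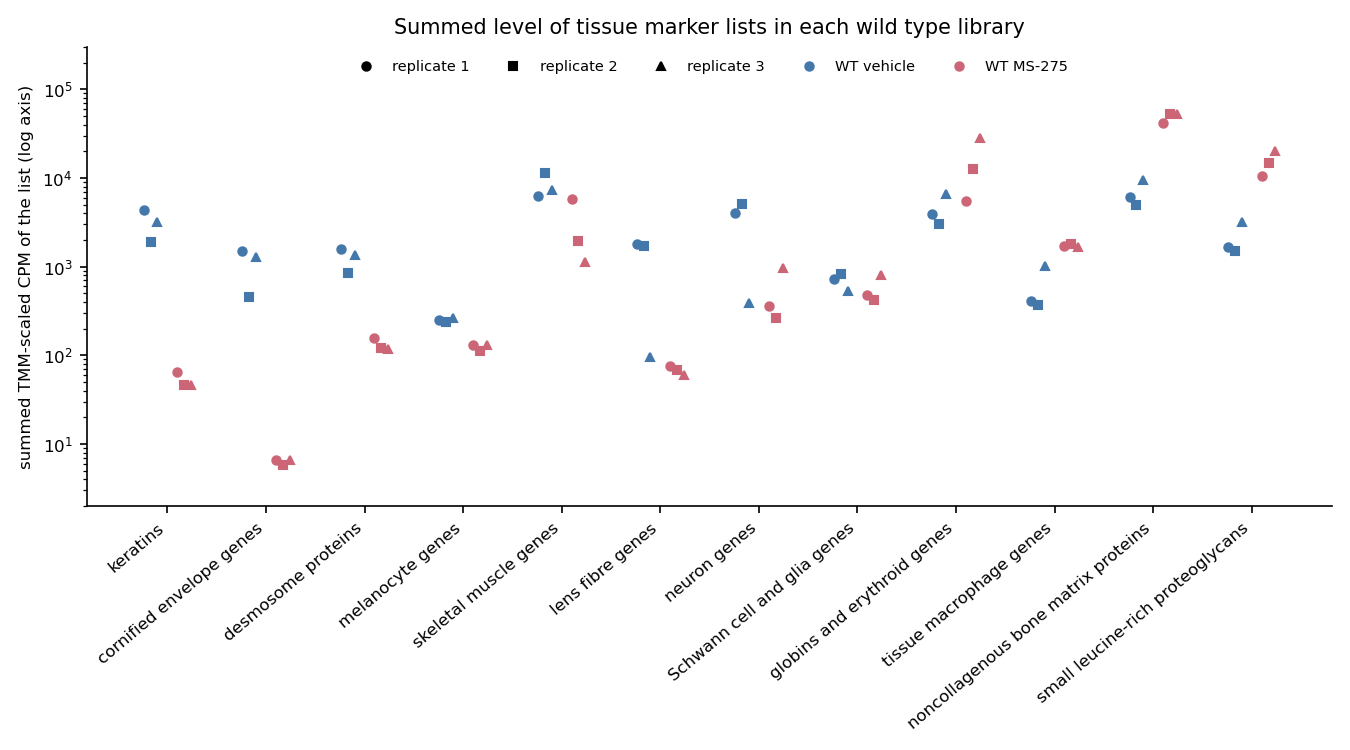
Each point is the summed TMM-scaled CPM of a marker list in 1 WT library, on a log axis. Epidermal lists are lower in all 3 MS-275 libraries, lens is high in vehicle replicates 1 and 2 only, and bone lists and macrophage markers are higher in MS-275.

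**Figure D5:**
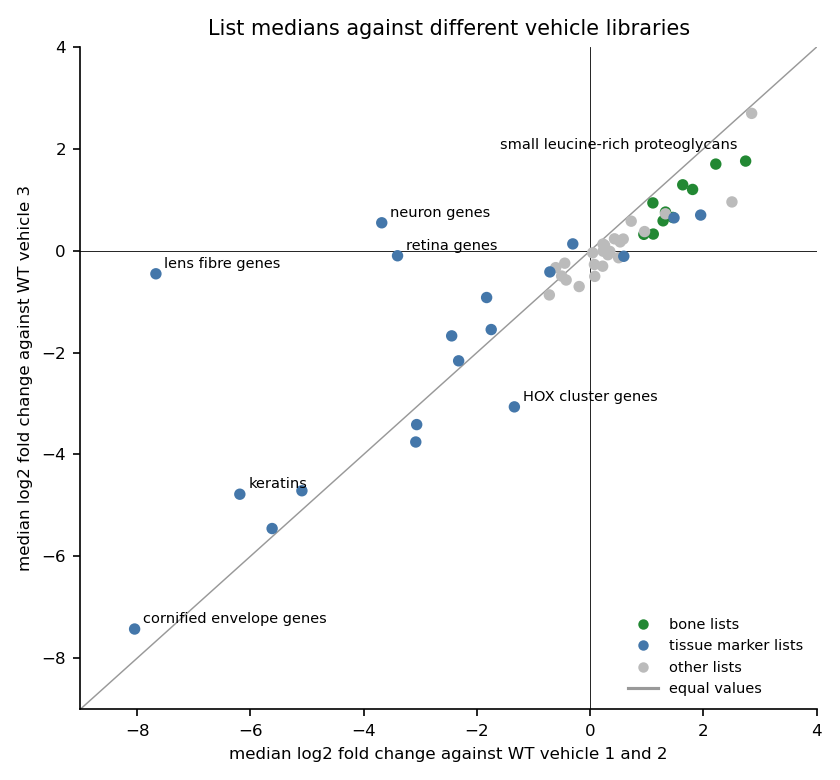
Each point is the median log2 fold change of 1 of 53 lists, with MS-275 set against vehicle replicates 1 and 2 (horizontal axis) and against vehicle replicate 3 alone (vertical axis); both axes share the 3 MS-275 libraries. Bone lists are positive and epidermal lists negative on both axes, while lens, retina and neuron lists lie near or above 0 against replicate 3.

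The genes with the smallest p among those of at least 20 CPM were not mainly bone or skin genes. Upward, Cd1d1, which presents lipid antigens, was at 18.7, 18.6 and 17.4 CPM in vehicle and 42.0, 65.2 and 67.3 CPM in MS-275, and Sppl2a, an intramembrane protease of lysosomes, at 82.1, 81.7 and 75.8 CPM against 313, 449 and 514 CPM. Smpdl3a, a phosphodiesterase, Clec12a, an inhibitory receptor of myeloid cells, and Mlip, a lamin-interacting protein, had log2 fold changes of 3.07 ± 0.60, 3.26 ± 0.60 and 3.57 ± 0.69. Slc36a2, an amino acid carrier, Glt8d1 and the noncoding genes Dleu2 and Mir99ahg were at 2.37, 1.43, 1.67 and 1.56. In the MS-275 libraries replicate 1 was the lowest for most of these. Downward, Ebf3 and Ebf2, transcription factors of mesenchyme and neurons, were at 60.2, 57.1 and 63.3 and 35.5, 35.0 and 32.2 CPM in vehicle, against 28.1, 21.9 and 22.4 and 13.6, 11.4 and 8.45 CPM in MS-275. Cobl, an actin nucleator, was at 42.7, 39.6 and 43.8 CPM against 18.4, 12.5 and 9.06 CPM, Hs6st1, a heparan sulfate sulfotransferase, at 44.9, 46.1 and 44.1 CPM against 20.9, 20.6 and 16.0 CPM, and the imprinted gene Peg10 at 169, 167 and 184 CPM against 73.2, 46.4 and 27.1 CPM. Vehicle libraries were within a narrow range in all 5, replicate 3 included. Rgma, Frem2, Lrrn1, Tuba4a and Tmem132c were at -1.59, -2.25, -1.89, -1.49 and -2.20.

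In Runx2+/- embryos the same comparison gave no gene past the threshold (0.0% of those tested; smallest adjusted p 0.181, 3782 genes at an unadjusted p under 0.05, edgeR). The comparisons share no library, although they share the estimate of the spread. Of the genes called in WT, 1717 of 1738 higher and 1624 of 1676 lower had the same sign in Runx2+/-, against 82.5% of all genes tested. Median log2 fold changes of these genes were 1.39 in WT and 0.97 in Runx2+/- for the higher, and -2.37 and -0.80 for the lower. Without Runx2+/- MS-275 replicate 3, whose level of many of these genes is near vehicle, the Runx2+/- medians were 1.30 and -1.44. Bglap was at 6.57, 2.88 and 8.61 CPM in Runx2+/- vehicle and 202, 79.3 and 2.09 CPM in Runx2+/- MS-275, and Krt5 at 392, 177 and 138 CPM against 0.186, 0.239 and 270.3 CPM. In each, replicate 3 of the treated group is the library nearest to vehicle. List medians in WT and Runx2+/- were 2.43 and 1.87 for small leucine-rich proteoglycans, 2.24 and 1.18 for mineralization genes, 0.94 and 0.10 for osteoblast factors, -0.71 and -0.55 for the FGF list, 2.84 and 2.67 for mitochondrially encoded genes and -6.28 and -0.76 for keratins. Some lists differed in sign, among them adipocyte genes at -2.20 and 1.58, skeletal muscle genes at -1.76 and 0.19, and glycolysis and hypoxia genes at -0.03 and 0.25.

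The difference of the drug differences, Runx2+/- minus WT, was called for no gene (0.0%; smallest adjusted p 0.873; 953 genes at an unadjusted p under 0.05, edgeR). The 3 genes with the smallest p downward were Siglec15, an osteoclast receptor, at -3.97 ± 1.06, Chac1 at -2.24 ± 0.61 and Atf5, a stress factor, at -0.97 ± 0.27. Upward they were Rasd2, Prss41 and Isl1, at 4.59 ± 1.05 for Isl1, and Rasd2 and Prss41 were at 0 counts in the WT MS-275 libraries. DESeq2 called 38 genes for this difference, all higher in Runx2+/-, and 29 of them were at 0 counts in the WT MS-275 libraries.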

How the data were processed

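RNA from whole calvariae was measured in 12 libraries made with a stranded total RNA kit, per the labels' protocols. The authors deposited unnormalized whole-number read counts for each Ensembl gene. Per the submitters' processing notes they used Trimmomatic, Bowtie2, SAMtools and HTSeq; versions, and whether counting used strand, are not given in the sources used here. Values of antisense, overlapping and near-identical genes are therefore uncertain. The notes name GRCh38.p7, a human build, while the identifiers are mouse; positions come from GENCODE M21 (GRCm38) by identifier. The 5 summary entries of each file, which name no gene, stayed out of library sizes and tests (no-feature reads 5.21% to 15.2% in the WT libraries). Symbols were found for 37607 identifiers, and the other 1572 held 0.217% of counts. Promoters are RefSeq's.

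filterByExpr with the 4 groups kept 17967 genes, which were scaled by TMM (factors 0.598 to 1.33) and fitted with edgeR 4.0.16 (R 4.3.3; quasi-likelihood F test, robust, two-sided) over all 12 libraries, 4 group means and no covariate, with 8 residual degrees of freedom and a biological coefficient of variation of 0.442. The threshold was a Benjamini-Hochberg adjusted p of 0.05 over all genes tested. SE was taken as the absolute log2 fold change over the root of F. With 3 against 3, an exact permutation test cannot give p below 0.1, so none was run. A gene at 0 could have had up to 3 counts per library (mean 0.147 CPM in WT vehicle, 0.233 in WT MS-275); this floor covers counting error only, since reads are not independent molecules.

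The fit was tested on simulated data for WT MS-275 against WT vehicle over 17967 genes: 3, 31, 37 and 47 of 50 genes were called at log2 changes of 1, 2, 3 and 5, and 5 of 17357 unchanged genes. The simulated counts were independent draws with few changed genes and no library set apart, unlike the real libraries. They therefore do not show how many calls in the real data are false. Members and lists were chosen with earlier results of these data known. Named genes are the 12 with the smallest p per direction with at least 20 CPM over the 6 WT libraries and no overlap, the 10 with the largest change per direction with at least 20 CPM in the higher group and a count in every library of the lower, key genes and the top called members of 53 lists, and the 3 with the smallest interaction p per direction. Some named genes are not reported here. A list is described by its calls and median, with no test of its own. Alternatives were other scalings, no filter, DESeq2 1.42.0, limma-voom 3.58.1, a 2-fold test, the 6 WT libraries alone, mitochondrially encoded genes removed, a replicate block and leaving out libraries. Figures were drawn with matplotlib 3.10.9 in Python 3.11.15.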

Additional observations from a re-analysis of the deposited data

How the results depend on the processing

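The counts of called genes, 1738 higher and 1676 lower, depended on the settings, and the adjusted p-values of called genes lay just under the threshold. They were 526 and 7009 by library size alone, 3326 and 3897 by DESeq2, 0 and 1 by limma-voom (smallest adjusted p 0.048), 0 and 0 without a filter (0.0512), 3448 and 3861 with the 6 WT libraries alone, 0 and 0 in the 2-fold test and 0 and 0 without vehicle replicates 1 and 2 together. Other scalings, and removal of mitochondrially encoded genes, gave 1351 to 1968 higher and 1586 to 1821 lower. Leaving out each of the 12 libraries gave 0 to 4040 higher, 0 to 4440 lower and 0 to 1 for the difference between genotypes, which DESeq2 called for 38 genes. No gene was called without WT vehicle replicate 1 or 2, any of the 3 WT MS-275 libraries, Runx2+/- vehicle replicate 1 or 2, or Runx2+/- MS-275 replicate 2, and the cause was not tested. Without WT vehicle replicate 3 the counts were 2539 and 3062, without Runx2+/- vehicle replicate 3 they were 954 and 1067, without Runx2+/- MS-275 replicate 1 they were 2832 and 2746, and without Runx2+/- MS-275 replicate 3 they were 4040 and 4440. With the replicate number as a block 0 genes were called higher and 0 lower (smallest adjusted p 0.0887). Whether equal numbers pair the samples was not settled. The deviations of same-numbered WT vehicle and WT MS-275 libraries from their group means correlated at -0.0416, -0.409 and -0.311. Those of same-numbered WT vehicle and Runx2+/- vehicle libraries correlated at 0.22, 0.752 and 0.812. Between differently numbered libraries of these vehicle groups the values ran from -0.827 to 0.679. All 1738 higher and at least 1675 lower genes kept their sign when any library, or vehicle replicates 1 and 2 together, was left out. That sign was largely fixed in advance, because the genes were called from these libraries and the groups rarely overlap in them. Of the genes named, Hdac2, which was not called, changed sign, to -0.22 by library size; the cause was not tested. Library size alone turned the sign of 14 of 57 list medians. At this depth a decrease to 0 cannot be told from one to under 3 counts.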

Other observations

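Further gene groups, chosen after their values were seen, so that their counts are no independent support for a direction, were higher in MS-275. Counts in brackets are those without vehicle replicate 3 and without Runx2+/- MS-275 replicate 3. Of 33 genes for folding and secretion in the endoplasmic reticulum, 17 (22 and 29) rose, none fell and the median log2 fold change was 1.45. The chaperone Hspa5 (BiP) was at 441, 369.5 and 497 CPM in vehicle and 1040.4, 1348 and 1417 CPM in MS-275, Hsp90b1 at 335, 287 and 357 CPM against 893, 1141 and 1429.7 CPM, and the prolyl isomerase Fkbp11 at 10.3, 6.46 and 24.3 CPM against 104, 127 and 176 CPM. The groups do not overlap in these genes. Translocon-associated subunits Ssr1, Ssr2, Ssr3 and Ssr4 rose by 1.26, 2.02, 1.76 and 2.57 on the log2 scale, while Xbp1, a factor of the unfolded protein response, was not called at 0.98. Of 30 lysosomal genes 12 (18 and 19) rose and none fell: Ctsh, a cathepsin, was at 27.0, 23.0 and 51.2 CPM against 197, 247 and 338 CPM, Lamp2, a membrane protein, at 168, 150.1 and 251 CPM against 605, 782 and 1016 CPM, and Cd63 at 111, 90.3 and 258 CPM against 715, 933 and 1234 CPM. Galc (galactosylceramidase) was not called at -0.23.

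Interferon-stimulated genes rose in 23 of 35 cases and fell in none, with a median of 1.53 and 1.05 in Runx2+/-. Ifit1, an antiviral RNA-binding protein, was at 0.917, 1.56 and 1.48 CPM in vehicle and 8.07, 26.8 and 13.9 CPM in MS-275, Isg15, a ubiquitin-like protein, at 1.83, 1.85 and 2.57 CPM against 8.33, 14.7 and 14.3 CPM, and Bst2 at 7.22, 7.50 and 14.0 CPM against 37.7, 35.6 and 43.4 CPM. MS-275 replicate 2 was highest for Ifit1, Ifit3 and Cxcl10, the last at 0.651, 7.53 and 0.949 CPM. Stat2 was not called at -0.20. Macrophage markers, which can share such genes, are higher too, and their part was not tested. Complement genes rose in 8 of 19: Cfp (properdin), which stabilizes the convertase of the alternative route, was at 13.1, 13.1 and 17.8 CPM against 28.6, 39.2 and 42.0 CPM. Serping1, C3ar1 and Cd59a were at 2.62, 2.46 and 2.56, and C3 itself was not called at -0.63. The lipase genes Lipc and Lipi were at 1.83, 0.865 and 2.87 and 2.99, 1.50 and 4.65 CPM in vehicle, against 47.0, 52.9 and 71.6 and 31.6, 64.0 and 68.4 CPM.

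With the tested genes in 5 equal groups by gene span, group 5 (the longest) had 277 higher and 445 lower of 3553, with a median log2 fold change of -0.29, and group 3 had 441 higher and 321 lower of 3554, with a median of -0.04. The median span was 22554 bases for genes called higher and 26456 bases for genes called lower, with a span known for 99.4% and 99.2% of them. The cause was not tested.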
